A study of Mus musculus with 79 samples.

Results

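This account follows 9 genes that mark epithelia, namely Cldn3, Cldn4, Cldn6, Cldn7, Epcam, Krt8, Krt18, Grhl2 and Grhl3, chosen by name. All 9 were found among the 23983 rows of each of the 3 expression tables, which were read separately. The study concerned neuro-mesodermal progenitors (NMPs), cells of the mouse tail end that carry both the mesodermal factor T (Brachyury) and the neural factor Sox2 and that feed both spinal cord and paraxial mesoderm. The labels name 79 samples, of which the 9 bulk RNA libraries and 53 single cells were used, and the 12 chromatin accessibility and 5 chromatin immunoprecipitation samples were not analysed here.

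The first table held T+ Sox2+, T+ and Sox2+ cells, sorted from caudal ends of wild-type (WT) embryos labelled C57BL/6N at Theiler stage 12 (TS12), with 1 library each. In the knockout table, T+ cells came from T2J/2J embryos (T KO) labelled C57BL/6J and from WT embryos labelled C57BL/6N, each at TS12 and TS13, with 1 library per genotype and stage. The same table held 2 libraries of Tbx6+ cells at TS14, both labelled C57BL/6J, one titled Tbx6 KO and one titled WT. The source names of that pair say the opposite, so it is called here by its titles. Tbx6 itself was at 10.2 FPKM in the Tbx6 KO-titled library and 31.5 FPKM in the WT-titled one, and T at 471 FPKM in the Tbx6 KO-titled library and 166 FPKM in the WT-titled one. The labels do not say which part of Tbx6 a deletion would remove, so these values do not settle the genotype. The single cells, T+ Sox2+ by sort, came from WT embryos labelled C57BL/6N at TS13. All embryos were grown from embryonic stem cells by tetraploid complementation and pooled before sorting, so that a library is not an animal, and strain label and T genotype cannot be told apart.

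Values are FPKM, the authors' fragments scaled by transcript length and by each library's mapped fragments, which can be compared between genes because they are scaled by length. Depth read from the steps of low values was between 20.8 M and 43.5 M fragments per bulk library (M, mega). The 9 genes came out at whole fragments in every library, except Cldn7 in 1, so a 95% counting interval is given for ratios of FPKM. These intervals cover counting error only, not differences between sorts, embryos or library preparations, and with 1 library a group there is no replicate check. T itself was at 4.61 FPKM in T KO and 69.8 FPKM in WT libraries at TS12, and at 3.32 FPKM in T KO and 76.4 FPKM in WT libraries at TS13. The WT T+ TS12 library stood apart: 1033 of 1459 sensory receptor genes were above 0 in it, with a 95th percentile of 0.44 FPKM, against 24 to 36 such genes in the other 8 libraries. Values under that level in it were not separated from its background.

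Epithelial cells hold together through tight junctions, whose strands are made of claudins, and through adhesion molecules such as Epcam, which binds its like on the neighbouring cell. Inside, the type II keratin Krt8 pairs with the type I keratin Krt18 to form the intermediate filaments of simple epithelia. Grhl2 and Grhl3 are grainyhead-like transcription factors that activate epithelial genes, and mice without either fail to close the neural tube. The caudal epiblast that holds NMPs is itself an epithelium, and cells that enter the mesoderm leave it by an epithelial-to-mesenchymal transition in which Snai1, a repressor, is switched on.

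RefSeq promoter windows of GRCm38.p6, from 250 bases before to 50 bases after a gene's start, were given for 8 of the 9 genes, Grhl2 being the one without. They are shown because one short motif recurs in them. CAGGTG, the E-box that Snail and Zeb repressors are known to bind and that can overlap the T-box site AGGTGTGA, was searched on both strands and stood in a window of each of the 8 genes, in 8 of their 9 windows. Of all 32851 windows of 300 bases, 20.2% held it, and of the 9969 windows within the same range of base composition, 52% to 62.3% G and C, 24.1% did. Counted by gene, it stood in a window of 22.6% of 27025 genes. Among other epithelial genes with a window 14 of 24 held it (58.3%), so it is not particular to the genes followed here. Of genes of epithelial-to-mesenchymal transition and mesenchyme with a window, 1 of 8 held it. Copies numbering 2 or more stood in 5 of the 9 windows, against 2.88% of all windows. The windows of the 5 genes that reached 5 FPKM in the knockout table are printed on the gene's own strand, with the motif in capitals.
Grhl3: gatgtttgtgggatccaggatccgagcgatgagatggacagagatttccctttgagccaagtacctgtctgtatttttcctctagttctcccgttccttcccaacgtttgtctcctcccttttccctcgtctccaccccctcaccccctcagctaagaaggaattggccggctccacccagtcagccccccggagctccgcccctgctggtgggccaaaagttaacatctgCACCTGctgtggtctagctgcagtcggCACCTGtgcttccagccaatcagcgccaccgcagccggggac
Cldn6: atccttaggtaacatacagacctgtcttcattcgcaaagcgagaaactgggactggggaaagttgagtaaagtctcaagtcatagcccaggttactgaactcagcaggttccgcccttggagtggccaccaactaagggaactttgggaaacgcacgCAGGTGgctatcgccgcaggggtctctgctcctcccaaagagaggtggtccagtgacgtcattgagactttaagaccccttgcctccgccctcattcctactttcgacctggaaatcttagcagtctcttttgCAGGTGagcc
Epcam: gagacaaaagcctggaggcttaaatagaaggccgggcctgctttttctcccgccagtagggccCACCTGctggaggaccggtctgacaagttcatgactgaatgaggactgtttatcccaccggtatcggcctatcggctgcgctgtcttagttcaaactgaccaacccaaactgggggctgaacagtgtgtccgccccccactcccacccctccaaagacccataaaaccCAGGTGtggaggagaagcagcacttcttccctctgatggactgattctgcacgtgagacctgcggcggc
Krt8: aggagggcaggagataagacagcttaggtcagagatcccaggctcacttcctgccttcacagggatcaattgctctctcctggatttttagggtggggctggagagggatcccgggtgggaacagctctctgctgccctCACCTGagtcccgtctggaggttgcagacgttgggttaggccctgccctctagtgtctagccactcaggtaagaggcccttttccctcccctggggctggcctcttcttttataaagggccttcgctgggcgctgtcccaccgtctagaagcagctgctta
Krt18: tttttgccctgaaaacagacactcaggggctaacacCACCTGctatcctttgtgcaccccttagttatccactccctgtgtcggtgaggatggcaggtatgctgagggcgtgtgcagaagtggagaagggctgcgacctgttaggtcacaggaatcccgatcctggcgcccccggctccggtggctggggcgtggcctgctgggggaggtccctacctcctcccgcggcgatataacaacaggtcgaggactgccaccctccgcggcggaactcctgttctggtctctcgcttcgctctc
These windows lie at chr4:135573583-135573882 on the minus strand, chr17:23679115-23679414 on the plus strand, chr17:87635729-87636028 on the plus strand, chr15:102004293-102004592 on the minus strand and chr15:102027966-102028265 on the plus strand. Counted from the start as position 1, the motif began at -19 and 9 in Grhl3, -93 and 41 in Cldn6, -187 and -19 in Epcam, -111 in Krt8 and -214 in Krt18. None of the 9 windows held the grainyhead-like motif AACCGGTT or its looser form AACNNGTT, the T-box site AGGTGTGA or its core GGTGTGA, or the SoxB1 core ACAATGG, searched on both strands. Of all windows, 0.146%, 4.2%, 1.28%, 3.98% and 3.66% held these motifs, in that order. A match is a run of letters, and no binding was measured in these windows here.

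In the sorted WT fractions Grhl3 and the claudins were higher in both Sox2+ fractions than in T+ cells, and Krt8 and Krt18 were highest in T+ cells. The sorting genes themselves did not split cleanly: T was at 341 FPKM in T+ Sox2+, 141 FPKM in T+ and 192 FPKM in Sox2+ cells, and Sox2 at 16.4, 2.82 and 50.5 FPKM in the same order. Grhl3 was at 9.46 FPKM in T+ Sox2+ cells, 0.935 FPKM in T+ cells and 13.2 FPKM in Sox2+ cells. It was 10.1 times as high in T+ Sox2+ cells as in T+ cells (counting interval 7.95 to 13.0), and 0.717 times as high as in Sox2+ cells (0.648 to 0.793). Both Sox2+ fractions were thus far above the T+ fraction, and the T+ Sox2+ value lay between those of the T+ and Sox2+ fractions.

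Cldn6, the most abundant of the 4 claudins and known from embryonic epithelia, was at 14.7 FPKM in T+ Sox2+ cells, 4.83 FPKM in T+ cells and 13.3 FPKM in Sox2+ cells. The T+ Sox2+ and Sox2+ libraries were within counting error of each other, at a ratio of 1.11 (0.983 to 1.25), and both stood above the T+ library. Cldn4 was also lowest in T+ cells, at a lower level than Cldn6, with 2.61 FPKM in T+ Sox2+, 0.765 FPKM in T+ and 2.84 FPKM in Sox2+ cells. Cldn7 was at 3.50 FPKM in T+ Sox2+, 1.00 FPKM in T+ and 2.31 FPKM in Sox2+ cells, so that it was highest in the double-positive fraction. Cldn3, the neighbour of Cldn4 on chromosome 5, was at 1.12 FPKM or 33 fragments in T+ Sox2+ cells, 0.0274 FPKM or 1 fragment in T+ cells and 2.58 FPKM or 93 fragments in Sox2+ cells. Its ratio of T+ to Sox2+ cells was 0.0106 (0.000267 to 0.0608), the lowest of the 9. Epcam was flatter, at 4.65 FPKM in T+ Sox2+, 2.67 FPKM in T+ and 4.45 FPKM in Sox2+ cells, with a ratio of T+ to Sox2+ cells of 0.601 (0.49 to 0.734).

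The keratins ran the other way. Krt8 was at 13.8 FPKM in T+ Sox2+ cells, 24.4 FPKM in T+ cells and 9.56 FPKM in Sox2+ cells, and Krt18 at 6.07 FPKM, 19.3 FPKM and 5.50 FPKM in the same order. In T+ cells over Sox2+ cells the ratio was 2.56 for Krt8 (2.30 to 2.84) and 3.52 for Krt18 (3.03 to 4.11). Grhl2 was low throughout, at 0.174 FPKM in T+ Sox2+, 0.322 FPKM in T+ and 0.502 FPKM in Sox2+ cells, on 20, 46 and 71 fragments.

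**Figure D1:**
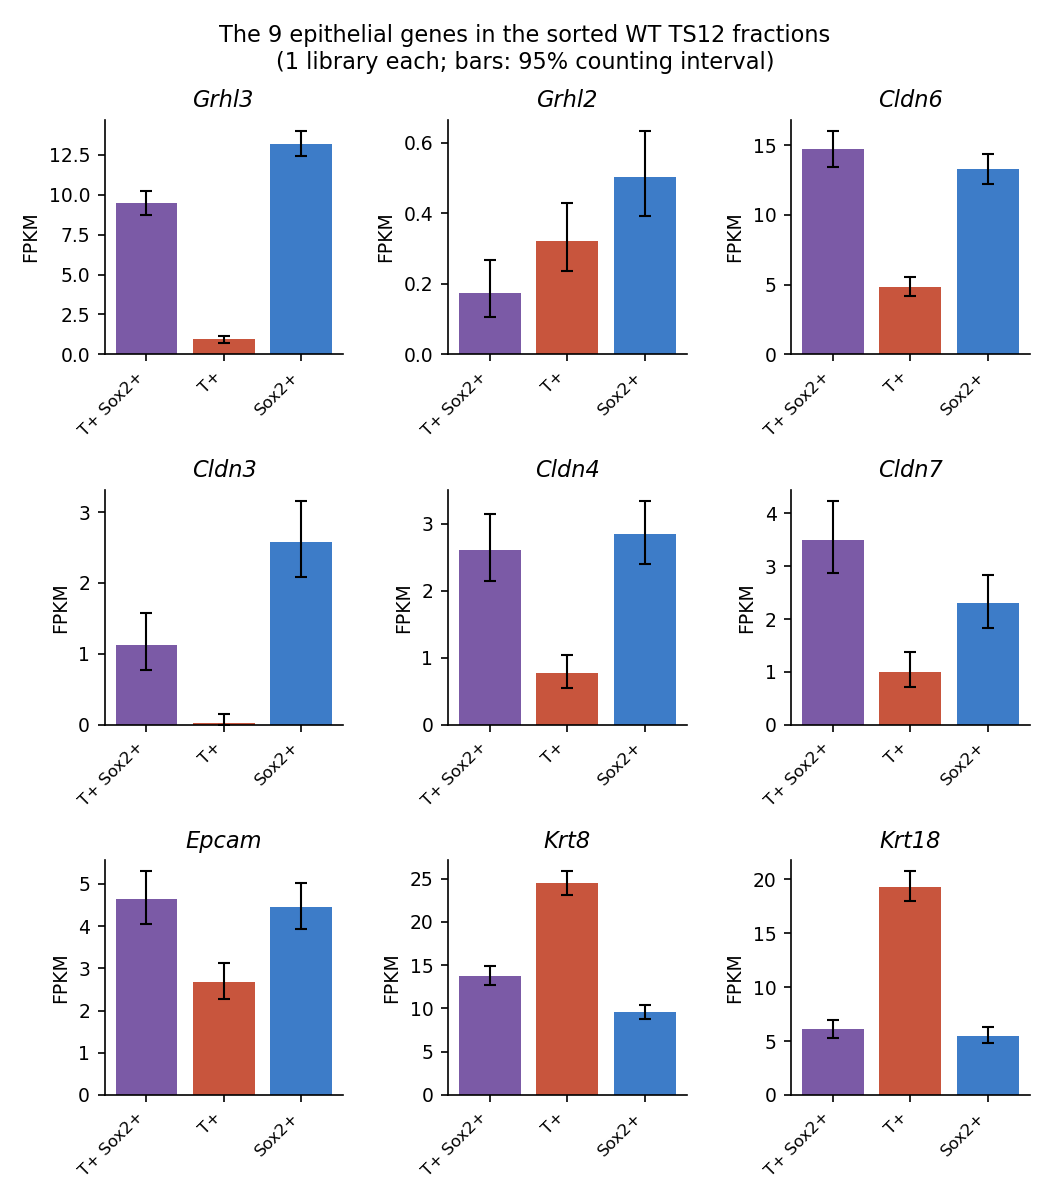
FPKM (vertical axes, from 0) of the 9 genes in T+ Sox2+, T+ and Sox2+ cells of WT TS12 embryos, 1 library each, with 95% counting intervals as error bars. Grhl3 and the 4 claudins are lowest in T+ cells, and Krt8 and Krt18 are highest there, at 24.4 and 19.3 FPKM.

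For counts, a gene was compared where 1 of 2 libraries had at least 5 FPKM, and was called apart where log2(FPKM + 1) differed by at least 1, that is 2-fold. In T+ Sox2+ against T+ cells, 3 of 4 compared genes were apart, Grhl3 and Cldn6 higher (2.43 and 1.43 in log2) and Krt18 lower (-1.52), where 3.14% of all genes compared were. In T+ against Sox2+ cells all 4 were apart, Krt8 and Krt18 higher (1.27 and 1.65) and Cldn6 and Grhl3 lower (-1.29 and -2.88), against a background of 6.82%. In T+ Sox2+ against Sox2+ cells none of 4 was, against a background of 2.93%. These 3 comparisons share libraries and are not independent of each other. Fewer cells of a type and less RNA per cell cannot be told apart in bulk libraries.

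Of 43 further epithelial genes, 15 were compared between T+ and Sox2+ cells, and 1 was higher and 4 were lower. Spint1, an inhibitor of membrane serine proteases, was at 3.12 FPKM in T+ and 9.18 FPKM in Sox2+ cells, and the polarity gene Pard6b at 2.02 FPKM in T+ and 6.24 FPKM in Sox2+ cells. Cldn9, which lies just past the end of Cldn6 on chromosome 17 in RefSeq, was at 5.66 FPKM in T+ and 14.2 FPKM in Sox2+ cells. Cdh3, P-cadherin, went with the keratins, at 16.1 FPKM in T+ and 7.44 FPKM in Sox2+ cells. The median log2 difference of the 15 was -0.49, and that of all genes compared was 0.01.

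Genes of mesenchyme and of other cell types moved along the same axis. Of 15 genes of epithelial-to-mesenchymal transition and mesenchyme, 14 were compared between T+ and Sox2+ cells and 9 were higher, with a median of 1.32. Snai1 was at 98.2 FPKM in T+ Sox2+, 116 FPKM in T+ and 26.6 FPKM in Sox2+ cells. The double-positive library thus had much Snai1 and much Grhl3 and Cldn6, and a bulk library does not show whether the same cells held them. Twist1, by contrast, was at 2.74 FPKM in T+ Sox2+, 25.8 FPKM in T+ and 1.57 FPKM in Sox2+ cells. Of 12 genes of endothelium and blood, each of the 11 compared had a higher level in the T+ library than in the Sox2+ one, and the list summed to 115 FPKM in T+ Sox2+, 12048 FPKM in T+ and 233 FPKM in Sox2+ cells. None of the 12 was at 0 in any of the 3 libraries. Surface ectoderm genes, 13 in all, summed to 17.6 FPKM in T+ Sox2+, 28.3 FPKM in T+ and 20.2 FPKM in Sox2+ cells, and both compared between T+ and Sox2+ cells were higher in T+ cells. Gata3 was at 7.46 FPKM in T+ and 0.892 FPKM in Sox2+ cells, and Msx2 at 14.6 FPKM in T+ and 5.71 FPKM in Sox2+ cells. Of the genes under 5 FPKM in both libraries, Tfap2a, Tfap2b, Tfap2c, Trp63, Dlx5, Wnt6 and Perp were lower in T+ than in Sox2+ cells. Dlx3 and Krt15 were higher in T+ cells. Krt15 was at 0 in T+ Sox2+ cells, Krt5, Krt14, Tfap2b and Tfap2c in T+ cells, and Krt5, Krt14 and Krt15 in Sox2+ cells. Among 14 gut endoderm genes Hnf4a was at 0 in all 3 libraries, and the list summed to 30.0 FPKM in T+ Sox2+, 20.8 FPKM in T+ and 65.7 FPKM in Sox2+ cells. The part of other cell types in the differences of the 9 genes was not tested.

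In T+ cells that lacked T, Grhl3 was higher than in WT cells at both stages, while Cldn6, Epcam and the keratins were lower or close. Grhl3 was at 7.62 FPKM in the T KO and 3.34 FPKM in the WT library at TS12, and at 14.3 FPKM in the T KO and 5.70 FPKM in the WT library at TS13. The ratio was 2.28 (1.92 to 2.70) at TS12 and 2.51 (2.28 to 2.76) at TS13. Both T KO libraries were above both WT libraries, and within each genotype TS13 was above TS12. Against the WT library of TS13, in place of the WT TS12 library that stood apart, the T KO TS12 library was higher by 0.36 in log2(FPKM + 1), where the reported difference was 0.99.

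Its relative Grhl2 was at 1.74 FPKM in the T KO and 0.792 FPKM in the WT library at TS12, and at 0.989 FPKM in the T KO and 0.787 FPKM in the WT library at TS13. The ratio was 2.2 (1.69 to 2.88) at TS12 and 1.26 (0.999 to 1.58) at TS13. Only the T KO TS12 library thus stood clear of the other 3 in counting terms.

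Cldn6 was at 20.2 FPKM in the T KO and 22.4 FPKM in the WT library at TS12, and at 15.7 FPKM in the T KO and 32.3 FPKM in the WT library at TS13. Epcam was at 8.00 FPKM in the T KO and 10.9 FPKM in the WT library at TS12, and at 5.72 FPKM in the T KO and 12.2 FPKM in the WT library at TS13. For both genes the 2 T KO libraries lay below the 2 WT libraries, and the ratio was lower at TS13, with T KO to WT ratios of 0.488 for Cldn6 (0.448 to 0.531) and 0.468 for Epcam (0.414 to 0.528), than at TS12, with ratios of 0.901 (0.809 to 1.00) and 0.738 (0.641 to 0.848).

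Krt8 was at 39.3 FPKM in the T KO and 46.1 FPKM in the WT library at TS12, and at 21.7 FPKM in the T KO and 35.8 FPKM in the WT library at TS13. Krt18 was at 40.8 FPKM in the T KO and 45.8 FPKM in the WT library at TS12, and at 25.2 FPKM in the T KO and 34.5 FPKM in the WT library at TS13. Here the genotypes overlapped across stages, since the T KO TS12 library lay above the WT TS13 library for both keratins. Among the 4 T+ libraries the lowest value of each was that of T KO TS13. Against the WT library of TS13 the T KO TS12 library was higher by 0.13 for Krt8 and 0.24 for Krt18 in log2(FPKM + 1), where the reported differences were -0.23 and -0.16.

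Cldn7 changed sides. It was at 2.35 FPKM in the T KO and 1.15 FPKM in the WT library at TS12, a ratio of 2.05 (1.33 to 3.22), and at 0.751 FPKM in the T KO and 2.07 FPKM in the WT library at TS13, a ratio of 0.362 (0.235 to 0.544). Cldn4 was at 1.09 FPKM in the T KO and 0.805 FPKM in the WT library at TS12, and at 2.17 FPKM in the T KO and 1.68 FPKM in the WT library at TS13, and both ratios had intervals that held 1. Cldn3 rested on 5 to 27 fragments a library, with 0.190 FPKM in the T KO and 0.252 FPKM in the WT library at TS12, and 0.679 FPKM in the T KO and 0.375 FPKM in the WT library at TS13. The WT TS12 value of Cldn3 was below the 95th percentile of the receptor genes in that library.

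**Figure D2:**
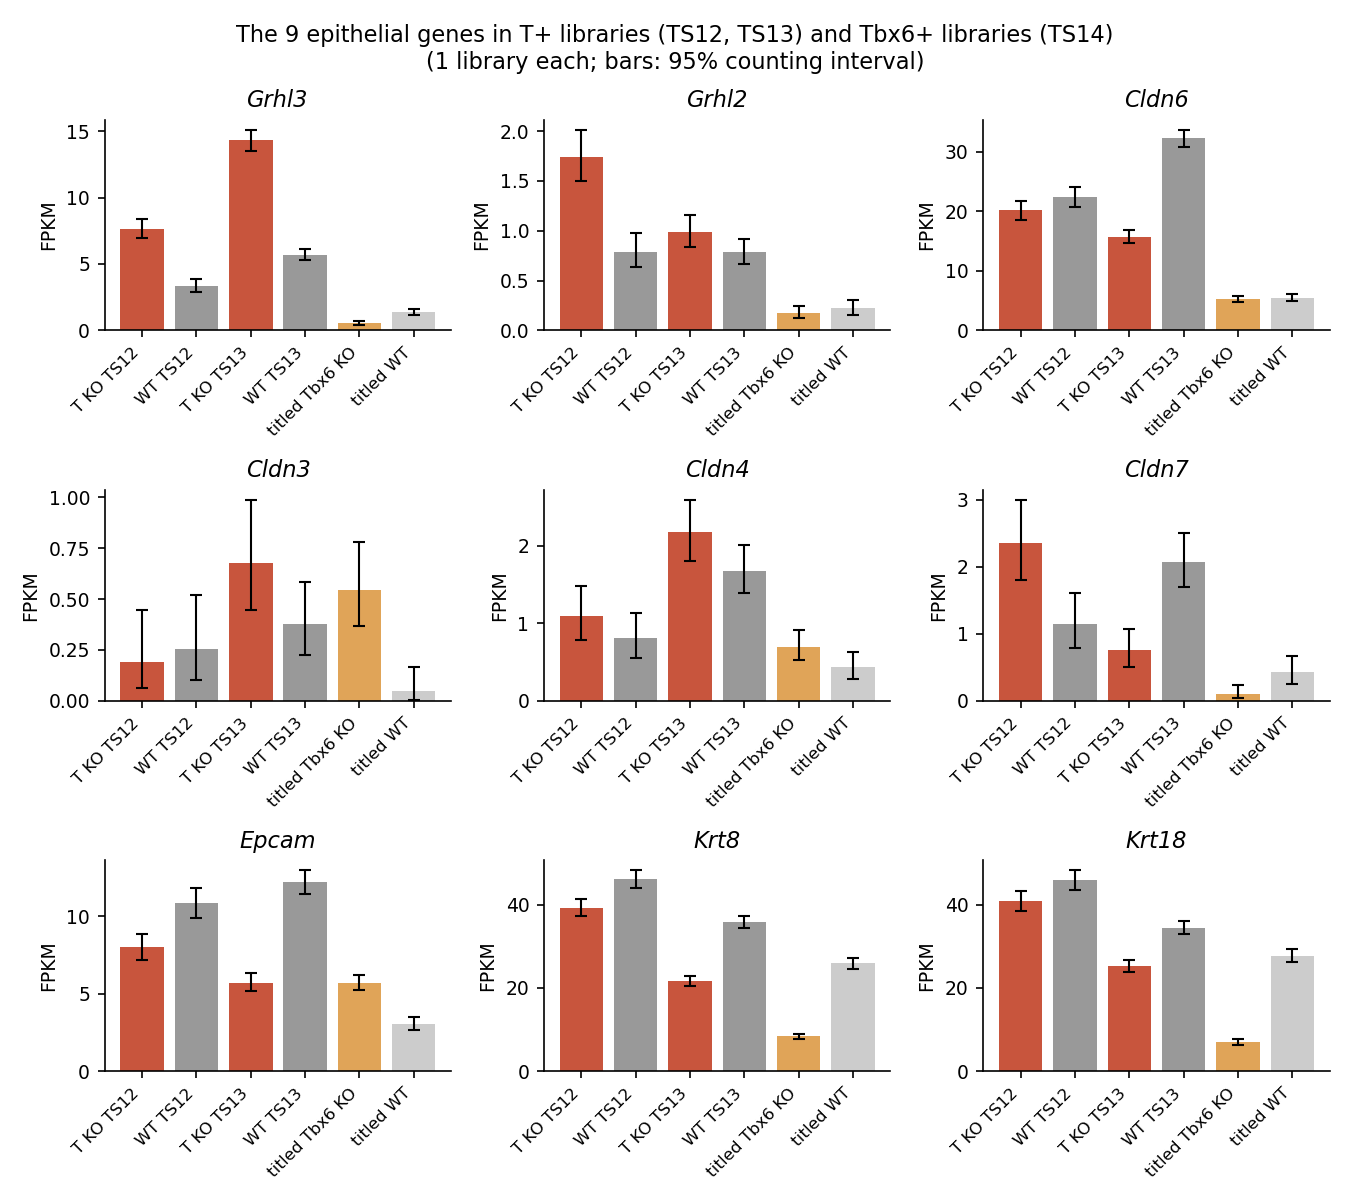
FPKM (vertical axes, from 0) of the 9 genes in the knockout table, 1 library each: T+ cells of T KO (red) and WT (grey) embryos at TS12 and TS13, and Tbx6+ TS14 libraries titled Tbx6 KO (orange) and WT (light grey). Error bars are 95% counting intervals. Grhl3 is higher in T KO at both stages, at 7.62 and 14.3 FPKM.

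One of the 5 genes tested passed a fit over both stages. The 4 T+ libraries were fitted with limma on log2(FPKM + 1) with terms for genotype and stage, which leaves 1 residual degree of freedom, and p-values were adjusted over all 8444 genes tested. Grhl3 rose in T KO by 1.09 ± 0.19 (log2, SE; limma adjusted p = 0.0293), where 1.13% of all genes tested passed in either direction. Epcam differed by -0.69 ± 0.19 (limma adjusted p = 0.162), Cldn6 by -0.57 ± 0.20 (limma adjusted p = 0.262), Krt8 by -0.46 ± 0.16 (limma adjusted p = 0.268) and Krt18 by -0.30 ± 0.15 (limma adjusted p = 0.463). The other 4 genes stayed under 5 FPKM in all 4 libraries and were not tested. The call of Grhl3 needed the stage term: with all 4 libraries and no stage term the limma adjusted p was 0.429. With 3 libraries a fit with the stage term has no residual degree of freedom, so fits that left out 1 library also dropped that term, and the 2 changes cannot be told apart in them. In those fits the log2 difference of Grhl3 was 0.68 to 1.50 and the limma adjusted p was 0.278 to 0.869.

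Counted pair by pair, no gene of 5 compared was 2-fold apart at TS12 (background 2.06%), where Grhl3 fell just short at 0.99. At TS13 the count was 1 of 5, Grhl3 at 1.19 (background 2.66%), and Cldn6 and Epcam lay just inside at -0.99 and -0.98. The median of the 5 was -0.16 at TS12 and -0.70 at TS13, and that of all genes compared was 0.03 at TS12 and -0.04 at TS13. Between stages, none of 5 was apart in WT cells (TS13 against TS12, background 1.48%), and none of 5 in T KO cells (background 1.59%). In T KO cells the TS13 library was lower than the TS12 library for Krt8 (-0.83), Krt18 (-0.68), Epcam (-0.42) and Cldn6 (-0.34) and higher for Grhl3 (0.83). In WT cells it was lower for Krt8 (-0.36) and Krt18 (-0.40) and higher for Grhl3 (0.63), Cldn6 (0.51) and Epcam (0.16). These comparisons share libraries with the genotype comparisons.

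Among the 43 further epithelial genes, 18 were tested in the same fit, and 1 passed: Pkp2, a plakophilin of desmosomes, rose by 0.99 ± 0.15 in T KO (log2, SE; limma adjusted p = 0.0112). With no stage term its limma adjusted p was 0.0678, and 0.138 to 0.322 where a library was left out as well. Pkp2 was at 32.5 FPKM in the T KO and 15.0 FPKM in the WT library at TS12, and at 31.9 FPKM in the T KO and 16.5 FPKM in the WT library at TS13. The median of the 18 was 0.11, beside a median of -0.0035 over all genes tested. E-cadherin, Cdh1, was at 7.40 FPKM in the T KO and 6.77 FPKM in the WT library at TS12, and at 1.76 FPKM in the T KO and 3.73 FPKM in the WT library at TS13. In T KO cells 3 of the further genes were 2-fold lower at TS13 than at TS12, namely Cdh1, the desmosomal cadherin Dsg2 and the splicing regulator of epithelia Esrp1, which was at 4.06 FPKM at TS13 and 9.82 FPKM at TS12.

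Neural genes were higher in T KO at TS13, where Grhl3 was highest too. Of 14 neural genes, Sox2 included, 8 were compared at TS13, and 5 were higher and 1 was lower, with a median of 1.12. At TS12 1 of 7 was higher and 1 lower, with a median of 0.24. Sox2 was at 14.9 FPKM in the T KO and 10.2 FPKM in the WT library at TS12, and at 43.5 FPKM in the T KO and 12 FPKM in the WT library at TS13. Sox1 was at 9.98 FPKM in the T KO and 0.569 FPKM in the WT library at TS13, and Sox3 at 11.0 FPKM in the T KO and 1.99 FPKM in the WT library at TS13. The lower gene at TS13 was Hes5, at 0.973 FPKM in the T KO and 5.15 FPKM in the WT library. At TS12 the lower gene was Fabp7, at 0.568 FPKM in the T KO and 6.34 FPKM in the WT library. In the fit over both stages 1 of 8 neural genes tested passed, Sox3, which rose by 1.61 ± 0.28 (log2, SE; limma adjusted p = 0.025). The list summed to 83.5 FPKM in the T KO and 69.7 FPKM in the WT library at TS12, and to 168 FPKM in the T KO and 78.8 FPKM in the WT library at TS13. In the sort table Grhl3 was highest in Sox2+ cells, and the part of neural cells in the Grhl3 difference was not tested.

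Genes of presomitic mesoderm fell in the same fit, and no mesenchyme gene tested passed. Of 19 genes of presomitic and paraxial mesoderm 11 were tested and 8 fell, with a median of -1.50, and of 9 tested mesenchyme genes none passed, with a median of -0.35. Snai1 was low in this table, at 0.758 FPKM in the T KO and 2.04 FPKM in the WT library at TS12, and at 0.541 FPKM in the T KO and 3.08 FPKM in the WT library at TS13. Surface ectoderm genes summed to 33.1 FPKM in the T KO and 26.7 FPKM in the WT library at TS12, and to 22.1 FPKM in the T KO and 28.6 FPKM in the WT library at TS13. Of the 13, Krt5 and Krt15 were at 0 in the T KO and none in the WT library at TS12. In that WT library Krt5 and Krt15, at 0.25 and 0.159 FPKM, lay under the 0.44 FPKM of its receptor gene background. At TS13 Krt5 was at 0 in the T KO and Krt5, Krt14 and Tfap2b in the WT library. Genes of endothelium and blood, none at 0, summed to 426 FPKM in the T KO and 832 FPKM in the WT library at TS12, and to 1843 FPKM in the T KO and 2391 FPKM in the WT library at TS13. None of their 10 tested members passed. Gut endoderm genes summed to 44.5 FPKM in the T KO and 54.3 FPKM in the WT library at TS12. At TS13 they summed to 50.9 FPKM in the T KO and 91.9 FPKM in the WT library. Apela alone was at 40.6 FPKM in that T KO library and 73.6 FPKM in that WT library. Of 4 tested genes of germ cells and pluripotency 2 fell in the fit and none rose. The part of these cell types in the differences above was not tested.

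Between the 2 Tbx6+ libraries of TS14 the keratins differed most among the genes at 5 FPKM or more. Krt8 was at 8.32 FPKM in the Tbx6 KO-titled library and 25.9 FPKM in the WT-titled one, a ratio of 0.321 (0.293 to 0.352). Krt18 was at 6.93 FPKM in the Tbx6 KO-titled library and 27.8 FPKM in the WT-titled one, a ratio of 0.25 (0.223 to 0.279). These 2 of 4 compared genes were 2-fold apart (-1.53 and -1.86 in log2), against a background of 4.10%. Epcam was at 5.70 FPKM in the Tbx6 KO-titled library and 3.06 FPKM in the WT-titled one, and Cldn6 at 5.25 FPKM in the Tbx6 KO-titled library and 5.51 FPKM in the WT-titled one. Grhl3 was at 0.562 FPKM in the Tbx6 KO-titled library and 1.38 FPKM in the WT-titled one, below every T+ library of the table.

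Cldn3 rested on 30 fragments in the Tbx6 KO-titled library and 2 in the WT-titled one, and Cldn7 on 6 in the Tbx6 KO-titled library and 19 in the WT-titled one. Cldn4 was at 0.698 FPKM in the Tbx6 KO-titled library and 0.436 FPKM in the WT-titled one, and Grhl2 at 0.177 FPKM in the Tbx6 KO-titled library and 0.224 FPKM in the WT-titled one. Of 15 compared genes among the further epithelial ones 4 were higher and 1 was lower in the Tbx6 KO-titled library. The ETS factor Elf3 was at 8.22 FPKM in the Tbx6 KO-titled library and 1.01 FPKM in the WT-titled one, and Cldn9 at 28.9 FPKM in the Tbx6 KO-titled library and 6.68 FPKM in the WT-titled one. Desmoplakin, Dsp, followed the keratins it is known to anchor, at 6.16 FPKM in the Tbx6 KO-titled library and 16.3 FPKM in the WT-titled one. Sox2 was at 42.3 FPKM in the Tbx6 KO-titled library and 4.70 FPKM in the WT-titled one. The notochord genes Shh and Noto were at 0.967 and 5.58 FPKM in the Tbx6 KO-titled library and at 6.85 and 19.9 FPKM in the WT-titled one. Genes of endothelium and blood summed to 264 FPKM in the Tbx6 KO-titled library and 31.6 FPKM in the WT-titled one. Of 14 presomitic genes compared, Tbx6 among them, 10 were lower and 1 was higher in the Tbx6 KO-titled library, with a median of -1.42. The part of these cell types in the keratin difference was not tested.

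**Figure D3:**
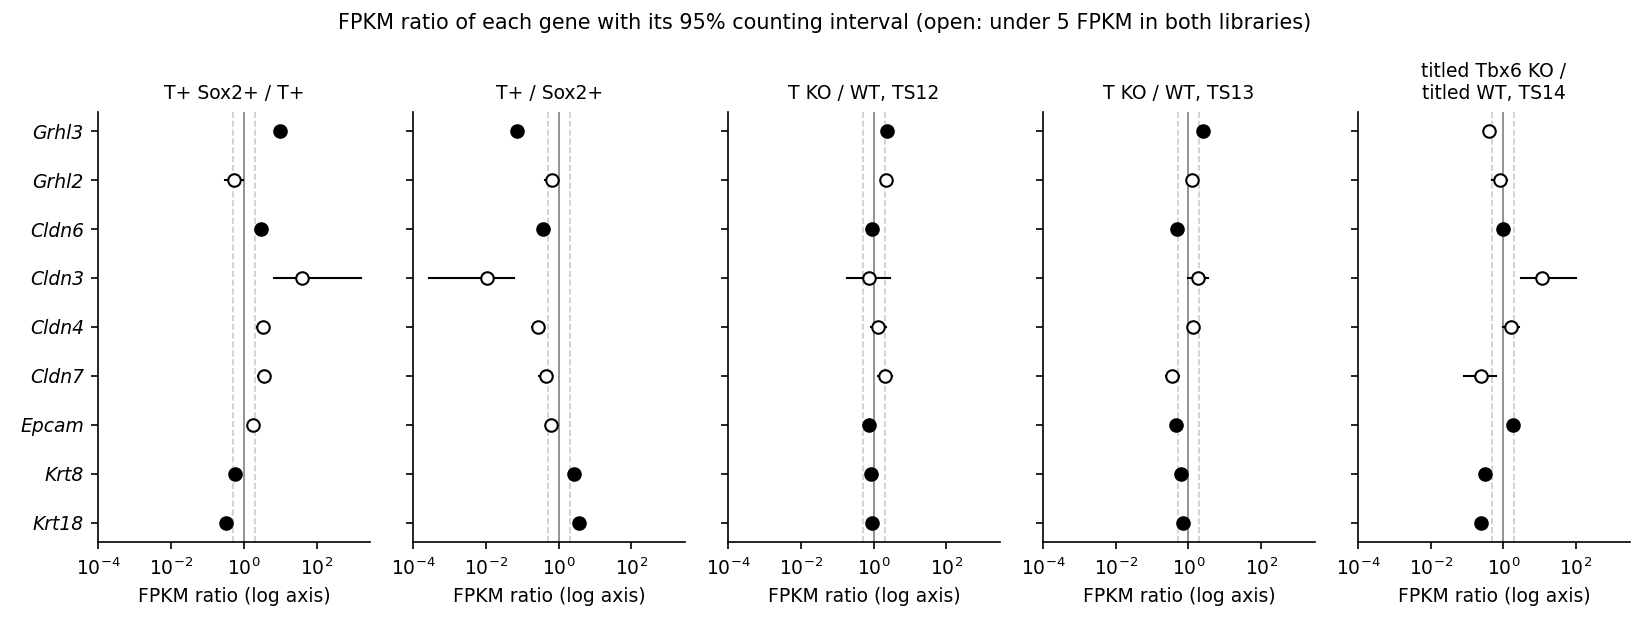
Ratio of FPKM (log axis) of each of the 9 genes in 5 comparisons, each the first-named library over the second, with 95% counting intervals as lines. Filled points had at least 5 FPKM in 1 of the 2 libraries, open points did not, and the solid and dashed vertical lines mark 1 and 2-fold. Grhl3 stands at 10.1 and 0.0708 in the first 2 panels, and the keratins at 0.321 and 0.25 in the last.

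Krt8 and Krt18 tracked each other through the knockout table. The 2 genes lie 23.9 kb apart on chromosome 15, and the ratio of Krt8 to Krt18 FPKM stayed between 0.861 and 1.20 over the 6 libraries, while Krt8 itself ranged between 8.32 and 46.1 FPKM. Over the same libraries the centred log2(FPKM + 1) profile of Krt18 was the closest to that of Krt8 among 8755 genes, with a root mean square difference of 0.14, and that of Krt8 was the closest to Krt18. This pair was looked at after its values were seen. In the sort table the ratio was 2.27 (1.93 to 2.68) in T+ Sox2+, 1.26 (1.16 to 1.38) in T+ and 1.74 (1.48 to 2.05) in Sox2+ cells, so there Krt8 exceeded Krt18. The sort table was made with another kit, and levels are not set across the tables.

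The 5 genes above 5 FPKM did not share 1 profile. Against their own mean profile the root mean square difference was 0.32 for Cldn6, 0.37 for Krt8, 0.40 for Krt18, 0.52 for Epcam and 0.69 for Grhl3. Among 8751 other genes the closest to that mean was Srm, spermidine synthase, at 0.03, ahead of Gpr124 (0.13), Fam117a (0.14), Desi1 (0.14) and Nfkbib (0.14). None of these is on the epithelial list. Over 6 libraries such likeness is a description.

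In single T+ Sox2+ cells of TS13 the share of cells with a gene ran between 0 for Cldn3 and 90.6% for Krt8. The labels name 55 capture sites with a cell and the table holds 53 cells, all with T and 46 with Sox2 at 1 FPKM or more, the level counted here as detected. Shares are given with exact Clopper-Pearson 95% intervals, which cover counting only. Fragments behind each cell's values are unknown, and between 4014 and 8866 genes were detected per cell.

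Krt8 was detected in 48 of 53 cells, or 90.6% (79.3% to 96.9%), with a lowest value of 0, a median of 20.4 FPKM and a highest value of 124 FPKM. Its partner Krt18 was detected in 23 cells, or 43.4% (29.8% to 57.7%), with a lowest value and a median of 0 and a highest value of 122 FPKM. Thus 27 cells had Krt8 without Krt18, 2 had Krt18 without Krt8, 21 had both and 3 had neither. Across the 53 cells Spearman's rho between the pair was -0.23, a weak value in sparse data.

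Cldn6 was detected in 34 cells, or 64.2% (49.8% to 76.9%), with a median of 4.64 FPKM and a highest value of 213 FPKM. Cldn7 was detected in 13 cells, or 24.5% (13.8% to 38.3%), Cldn4 in 2 cells, or 3.77% (0.46% to 13.0%), and Cldn3 in 0 of 53 cells, which allows a share of up to 5.66% by the limit of 3 cells in 53 and of 6.72% by the exact interval. At least 1 of these claudins was detected in 39 cells, and 2 or more in 9. Epcam was detected in 27 cells, or 50.9% (36.8% to 64.9%), with a median of 1.45 FPKM and a highest value of 158 FPKM. Many of its values lay close to the limit, since 35 cells were above 0.

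Grhl3 was detected in 18 cells, or 34% (21.5% to 48.3%), with a median of 0 and a highest value of 97.5 FPKM, and the median of the cells with it was 14.7 FPKM. Grhl2 was detected in 4 cells, or 7.55% (2.09% to 18.2%), at no more than 3.87 FPKM, and 3 of those 4 had Grhl3 too. Grhl3 was detected together with Cldn6 in 14 cells, with Epcam in 12 and with Cdh1 in 8.

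**Figure D4:**
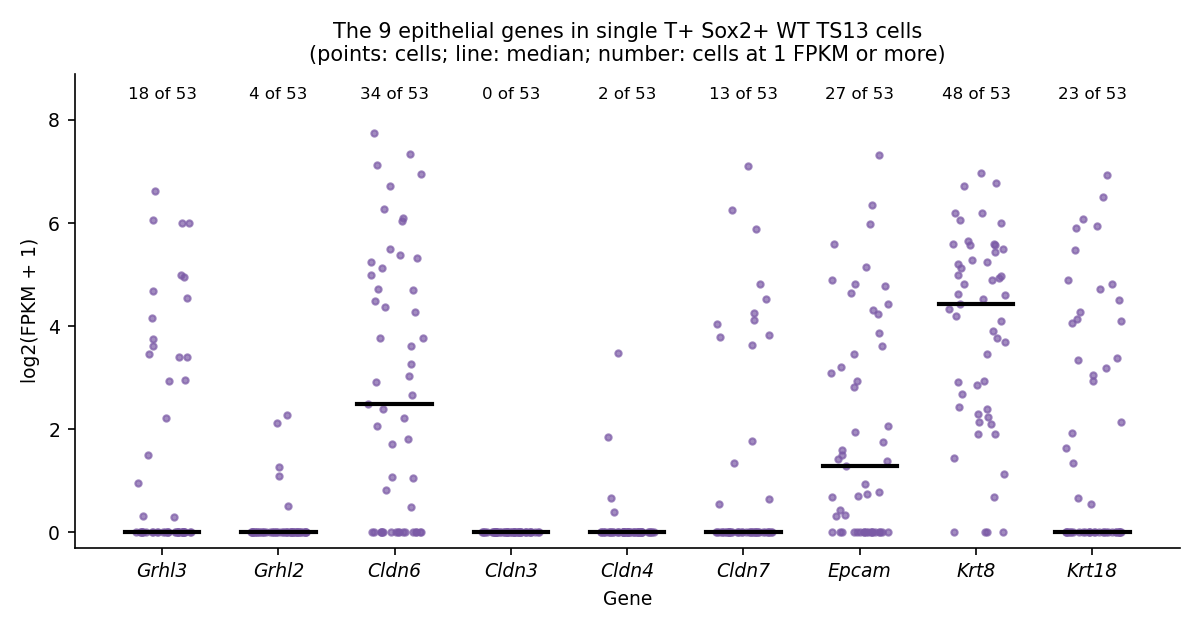
log2(FPKM + 1) (vertical axis) of the 9 genes in 53 single T+ Sox2+ WT cells of TS13. Each point is a cell, the line is the median, and the number above is the count of cells at 1 FPKM or more, which runs between 0 for Cldn3 and 48 for Krt8.

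By cell, 1 of the 9 genes was detected in 3 cells, 2 in 14 cells, 3 in 16, 4 in 12, 5 in 7 and 7 in 1 cell. Cldn6 and Krt8 were detected together in 31 cells and Epcam and Krt8 in 24. Cdh1 was detected in 18 cells, and Cdh1, Cldn6 and Epcam together in 5. Of the 27 cells with Epcam 26 had Cdh2, N-cadherin, 24 had Vim, vimentin, and 22 had Tbx6, and of all 53 cells 52 had Cdh2, 41 had Vim and 46 had Tbx6. Presence of Cdh2, Vim and Tbx6 was thus the rule in the sample and is not particular to cells with Epcam. For the 5 genes compared in this way, cells with the gene had more genes detected than cells without it, with medians of 6102 and 5517 for Epcam, 6183 and 5556 for Krt18, 6142 and 5573 for Grhl3, 6468 and 5578 for Cldn7 and 5944 and 5798 for Cldn6, and the part of capture efficiency in these shares was not tested. Of the 13 surface ectoderm genes, Krt5, Krt14, Krt15 and Tfap2b were detected in no cell, while Msx2 was detected in 48 cells, Gata3 in 18, Wnt6 in 10 and Tfap2a and Tfap2c in 8 each. Of the 12 genes of endothelium and blood, the globins Hba-x, Hbb-y and Hbb-bh1, Gata1, Slc4a1 and Cldn5 were detected in no cell, while Etv2 was detected in 13 cells, Kdr in 12 and Alas2 in 5. Of the further epithelial genes, F11r, a junctional adhesion molecule, was detected in 49 cells, Dsp in 48 and Spint1 in 40.

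Among 9123 genes detected in at least 10 cells, those with the highest Spearman's rho with the mean log2(FPKM + 1) of the 9 genes were Phka2 (0.56), Bivm (0.56), Pms1 (0.55), Kin (0.54) and Ptgis (0.54), over 53 cells that share a chip and differ in genes detected. They are given as a description.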

How the data were processed

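RNA was measured in 9 bulk libraries, 1 per group, and in 53 single cells, and samples were grouped by their labels. Per the labels' protocols, the sort table was made with TotalScript from the RNA of about 1000 cells, the knockout table with strand-specific ScriptSeq v2 from about 20000 cells, and the cells on a Fluidigm C1 chip. The authors deposited FPKM, aligned to mm10 and quantified with TopHat2 2.1.0 and Cufflinks 2.2.1 per the submitters' processing notes. FPKM are relative to each library's total, so a few abundant transcripts lower all other values.

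Each of the 9 genes was named in every sort and genotype comparison. Of the other lists, genes past 2-fold or the limma threshold were counted, and only some of these were named. Some genes were named without being counted, such as Snai1 and Cdh1 in T KO against WT. The 9 genes, the gene lists and the tests were chosen with earlier results of these data known. Rows left out of counts over all genes and of the limma fit numbered 2381 of 23983. They were small RNAs, predicted Gm genes, mitochondrial genes, ribosomal pseudogenes, joined symbols and T, Sox2 and Tbx6. Pairwise counts of the gene lists kept Sox2 among neural genes and Tbx6 among presomitic genes. Pairs of libraries were compared by log2(FPKM + 1), with a filter of 5 FPKM and no test. T KO and WT were fitted with limma 3.58.1 in R 4.3.3 (empirical Bayes with trend) with Benjamini-Hochberg adjustment at 0.05, after it was tested on simulated data. Nothing says that libraries came from separate litters. The 1 residual degree of freedom is the change of the genotype difference between the stages, and its variance is combined with one shared over all genes. These p-values thus measure no spread between replicate libraries or embryos.

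Depth was read from whole multiples among low FPKM values of genes under 6000 bases. Each gene's fragments were then found from the shortest length that made at least 8 of 9 values whole, within 0.02 fragments plus a small share for rounding; the Cldn7 value of Sox2+ cells was rounded. Ratio intervals are exact (binomial, 95%). PCR copies are not independent molecules, so they cover counting only. Promoters came from RefSeq (GRCm38.p6). Python 3.11.15 with scipy 1.17.1 was used. Alternatives were other pseudocounts (0.1 and 5), other filters (1 FPKM, 20 FPKM and none), upper-quartile scaling, no stage or trend term, leaving out a library, and the WT TS13 library in place of the WT TS12 library, the last chosen after seeing the data.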

Additional observations from a re-analysis of the deposited data

Results flagged for a closer look

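The differences of T KO minus WT in T+ cells had opposite signs at the 2 stages for Cldn7 and Cldn3. For Cldn7 the log2(FPKM + 1) difference of T KO minus WT was 0.64 at TS12 and -0.81 at TS13, so that the TS13 difference minus the TS12 difference was -1.45. For Cldn3 it was -0.07 at TS12 and 0.29 at TS13, a change of 0.36, on 5 to 27 fragments a library. Both counting intervals of its ratio held 1, at 0.189 to 2.76 at TS12 and 0.969 to 3.44 at TS13, so neither direction of Cldn3 is set. With 1 library per genotype and stage the change between stages was not tested, and the WT TS12 library is the one in which receptor genes were above 0.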

How the results depend on the processing

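Upper-quartile scaling left each count of genes apart within 1.5 times the reported one and turned round no difference of a gene counted apart. Another pseudocount or filter cannot turn a pairwise difference round, so those alternatives did not bear on direction. With the WT TS13 library in place of the WT TS12 library, the differences of Krt8 and Krt18, which were not counted apart, turned round. In T+ Sox2+ against T+ cells 6 genes were 2-fold apart, in place of 3, with a filter of 1 FPKM or none, since Cldn3, Cldn4 and Cldn7 then entered, and 0 with a filter of 20 FPKM. In T+ against Sox2+ cells a filter of 1 FPKM or none added Cldn3 (-1.80) and Cldn4 (-1.12). There a filter of 20 FPKM left 1. For T KO against WT a pseudocount of 0.1 gave 1 gene apart at TS12 and 3 at TS13, and at TS13 a pseudocount of 5 or a filter of 20 FPKM gave 0. The limma count of 1 became 0 with a pseudocount of 5, a filter of 20 FPKM or no stage term, and was 0 to 0 over the 4 fits that left out a library, which had no stage term either. A filter of 20 FPKM removes Grhl3. With a pseudocount of 5 the adjusted p of Grhl3 was 0.0514. In single cells, a limit of 10 FPKM gave shares of 41.5% for Cldn6, 26.4% for Epcam, 64.2% for Krt8, 26.4% for Krt18, 0% for Grhl2 and 20.8% for Grhl3, and any value above 0 gave 66.0% for Epcam. With a pseudocount of 0.1, 3 of the 5 genes most like the mean profile were shared. No paired analysis was possible because each group holds 1 library, so that the groups share only 1 replicate number; the stage term of the limma fit sets T KO against WT within each stage. Genes under about 10 fragments a library, such as Cldn3, are limited by depth.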
